A study of Mus musculus with 6 samples.

Results

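The regions described here are stretches of open chromatin with a deposited ATAC-seq peak in at least 2 of the 3 lists labelled Dek_cKO and in none of the 3 lists labelled Dek_fl. They were chosen by their peak calls in these 6 lists: 2695 of 84592 merged regions on chromosomes 1 to 19 and X met the rule, which is 3.19% of all regions. The cells were hematopoietic stem cells, sorted from the bone marrow of C57BL/6 mice aged 3 months (12 weeks in the protocol) as Lin-, Sca-1+, c-Kit+, CD48- and CD150+. Both groups carried the floxed Dek allele, Dekfl/fl, and were unchallenged. The group labelled Dek_cKO also carried Tie2-Cre, a transgene that drives Cre recombinase from Tek (Tie2) control DNA in endothelial and blood-forming cells, so Dek loss is not limited to stem cells. Each group had 3 libraries. Whether these came from separate animals is not given in the labels, and the series text speaks of duplicates.

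In ATAC-seq the Tn5 transposase cuts and tags DNA that is free of packed nucleosomes, so a peak marks accessible DNA such as a promoter or an enhancer. Most promoters of active genes are open in many cell types, whereas weaker sites inside and between genes differ more between cell types and states. Dek encodes a nuclear protein that binds chromatin and has been studied in blood stem cells.

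The lists were unequal before any comparison. Replicates 1, 2 and 3 had 52451, 71555 and 23813 peaks under the Dek_fl label and 70756, 73173 and 27170 under the Dek_cKO label. The replicate 3 lists of both groups were called with another threshold, with a lowest −log10 p of 5.07 and 5.02 against 2.87 to 3.13 in the other 4 lists. Peak lists hold no read numbers, so the absence of a call does not show closed chromatin. Of 10 marker genes of the sorted cells, 9 or 10 had a peak within 1 kb of a gene end in replicates 1 and 2, and 4 (Dek_fl) and 7 (Dek_cKO) in replicate 3. Of 9 lineage or gated-out genes 2 to 6 had one, Cd48 among them in all 6 lists, and of 5 endothelial genes 1 to 4 did. Tie2-Cre carries control DNA of Tek, yet the calls at Tek were stronger under the Dek_fl label. A region in the gene, chr4:94745330-94746933, was called in 3 Dek_fl lists and in 0 Dek_cKO lists, and the region at a gene end, chr4:94737560-94740256, had −log10 p of 260, 576 and 56.6 in Dek_fl and 32.9, 20.5 and 8.59 in Dek_cKO replicates 1, 2 and 3. Group names below are those of the labels, and an exchange of labels would reverse every direction. No region at Dek was a member, and the region at its end was called in all 6 lists.

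Only a small part of the members touched a promoter. On chromosomes 1 to 17, 19 and X, 87 of 2594 members (3.35%) overlapped a window running from 250 bases before to 50 bases after an annotated start site, against 15.4% of all regions and 46.2% of the regions called in all 6 lists. Low overlap was not particular to members. Of regions with a peak in at least 2 Dek_fl lists and in no Dek_cKO list, 5 of 286 (1.75%) overlapped one. The sequences below are the stretches upstream of the start site that lie inside the member region, on the gene's strand, from RefSeq (GRCm38.p6, the build also called mm10). They are shown for the promoter members called in all 3 Dek_cKO lists and for the 4 others of highest rank, as far as the bases lay outside annotated genes. Rgs19, whose window belongs to a start site inside the gene, is described without sequence. Capitals mark matches to searched motifs on either strand. The AP-1 search, TGANTCA, allowed any base in the middle, and the match at Serpinb10 has an A there.

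Ftdc1, chr16:58617130-58617228, minus strand (NF-Y): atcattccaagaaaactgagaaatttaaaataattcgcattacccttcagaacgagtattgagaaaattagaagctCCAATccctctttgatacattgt
Serpinb10, chr1:107528753-107528966, plus strand (GATA and AP-1): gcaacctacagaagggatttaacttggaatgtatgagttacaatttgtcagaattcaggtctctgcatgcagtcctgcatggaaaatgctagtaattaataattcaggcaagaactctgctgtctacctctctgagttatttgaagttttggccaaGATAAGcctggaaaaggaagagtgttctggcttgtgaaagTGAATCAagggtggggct
Gm41429, chr16:18696521-18696723, plus strand (E-box): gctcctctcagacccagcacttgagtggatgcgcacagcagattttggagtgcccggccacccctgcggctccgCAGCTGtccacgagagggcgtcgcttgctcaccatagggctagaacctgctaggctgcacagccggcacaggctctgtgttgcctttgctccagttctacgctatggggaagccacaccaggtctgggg
Dpf1, chr7:29303755-29303951, plus strand (GC box and NF-Y): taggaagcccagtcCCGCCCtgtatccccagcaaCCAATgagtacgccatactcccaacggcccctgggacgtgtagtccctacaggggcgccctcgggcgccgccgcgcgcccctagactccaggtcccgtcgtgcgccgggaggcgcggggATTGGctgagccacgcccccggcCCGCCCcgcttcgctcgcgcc
Sv2a, chr3:96181127-96181226, plus strand (no match): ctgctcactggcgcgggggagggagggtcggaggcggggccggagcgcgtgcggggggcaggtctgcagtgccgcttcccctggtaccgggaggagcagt
Tgtp2, chr11:49064213-49064462, minus strand (no match): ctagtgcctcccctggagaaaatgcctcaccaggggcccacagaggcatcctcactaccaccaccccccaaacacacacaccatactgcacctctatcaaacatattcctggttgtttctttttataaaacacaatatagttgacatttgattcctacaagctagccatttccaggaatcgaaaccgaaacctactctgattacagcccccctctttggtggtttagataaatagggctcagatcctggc

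Serpinb10 encodes a protease inhibitor of the serpin family, Dpf1 a neuronal subunit of the BAF chromatin remodeller, Sv2a a synaptic vesicle protein and Tgtp2 an interferon-induced GTPase. These stretches differ widely in base composition: G and C made up 32.3% of the bases at Ftdc1 and 41.6% at Serpinb10, against 73.1% at Dpf1, where 24 CG pairs fell in 197 bases. Over the 100 promoter windows under members the median was 53.8% G and C with 6.5 CG pairs. This lay near the median of all 32412 windows (53.0% and 7 pairs) and below that of the 11958 windows under regions called in all 6 lists (61.7% and 22 pairs).

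Each full window was scored as holding a motif or not, on either strand, after windows of duplicate sequence were dropped. GATAAG, the GATA motif, was in 12.0% of the 100 member windows, in 7.35% of all windows and in 4.37% of those under regions called in all 6 lists. CAGCTG, an E-box, was in 24.0%, 16.4% and 14.1% of the same sets. GGGCGG, the GC box typical of broadly active promoters, was in 40%, 36.0% and 66.5%. The other 5 motifs, GGAAGT (ETS), TGANTCA (AP-1), TGTGGT (RUNX), CCAAT (NF-Y) and TGACGTCA (CRE), were in 23.0%, 7%, 13.0%, 41.0% and 2% of the member windows and in 23.8%, 7.81%, 16.6%, 37.5% and 1.81% of all windows. A match is a run of letters and not a bound site, and 100 windows give a coarse share.

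The calls behind the members came mainly from 1 pair of lists. Of the 2695 regions, 2404 (89.2%) were called in Dek_cKO replicates 1 and 2 alone, 107 in replicates 2 and 3, 96 in replicates 1 and 3, and 88 (3.27%) in all 3. The opposite rule, at least 2 Dek_fl lists and no Dek_cKO list, gave 291 regions (0.344%), 272 of them from Dek_fl replicates 1 and 2. These counts are the rule itself and carry no test, and the lists they come from differ in length. Without Dek_fl replicate 2, the longest Dek_fl list, the members numbered 14314. Without Dek_cKO replicate 1 or 2 they numbered 193 and 184.

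Just outside the rule stood 12133 regions with a peak in 2 or 3 Dek_cKO lists and in 1 Dek_fl list, and in 94.5% of these the Dek_fl peak was in replicate 2. The weakest such Dek_fl peak lay 1539 bp from Myc, the growth-promoting transcription factor gene (chr15:61991900-61992718), with folds over background of 2.12 and 1.87 in Dek_cKO replicates 1 and 2 and 1.69 in Dek_fl replicate 2. Near Trnt1, whose product completes transfer RNA ends, chr6:106760940-106761915 had folds of 3.23, 3.22 and 2.08 in the same lists. Near Msc, chr1:14797888-14798536 had folds of 2.94, 2.32 and 2.08. Just inside it, the weakest members by rank were at an end of the iodide transporter gene Slc5a5 (chr8:70891463-70892491), with folds of 1.56 and 2.23 in Dek_cKO replicates 1 and 2, and 23971 bp from Atp6ap2 (chrX:12563081-12563788), with 2.20 and 3.22. A further one lay on chromosome 10 (chr10:96188302-96189001), far from any coding gene, with folds of 3.38 and 4.0 in Dek_cKO replicates 1 and 3. These were picked as the weakest on each side. Over all 12133 regions just outside, the median percentile of −log10 p was 26.4 and 27.6 in Dek_cKO replicates 1 and 2, with median folds of 3.94 and 4.18, above the member medians given next.

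Member peaks were weak in each list that called them. The fold of the summit over the local background (column 7) had a median of 3.23 in Dek_cKO replicate 1, 3.49 in replicate 2 and 6.47 in replicate 3, against 5.05, 5.32 and 8.31 over all peaks of these lists. It ranged from 1.56 to 7.78, 1.55 to 8.22 and 3.30 to 12.1. The −log10 q (column 9) had medians of 5.98, 5.77 and 8.85, against 19.3, 17.4 and 16.7 over all peaks. Ranked by −log10 p (column 8) within its list, the median member peak stood at percentile 14.9, 16.0 and 21.2. No member peak ranked above percentile 78.1 in any of the 3 lists, and 75.2% and 72.0% of those in replicates 1 and 2 were among the weakest 25% of their list. The opposite Dek_fl set also ranked low in its own lists, at median percentiles of 9.41, 12.5 and 13.0 in Dek_fl replicates 1, 2 and 3. Fold and q are the authors' own values, set within a list, and are not levels that compare between lists.

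**Figure D1:**
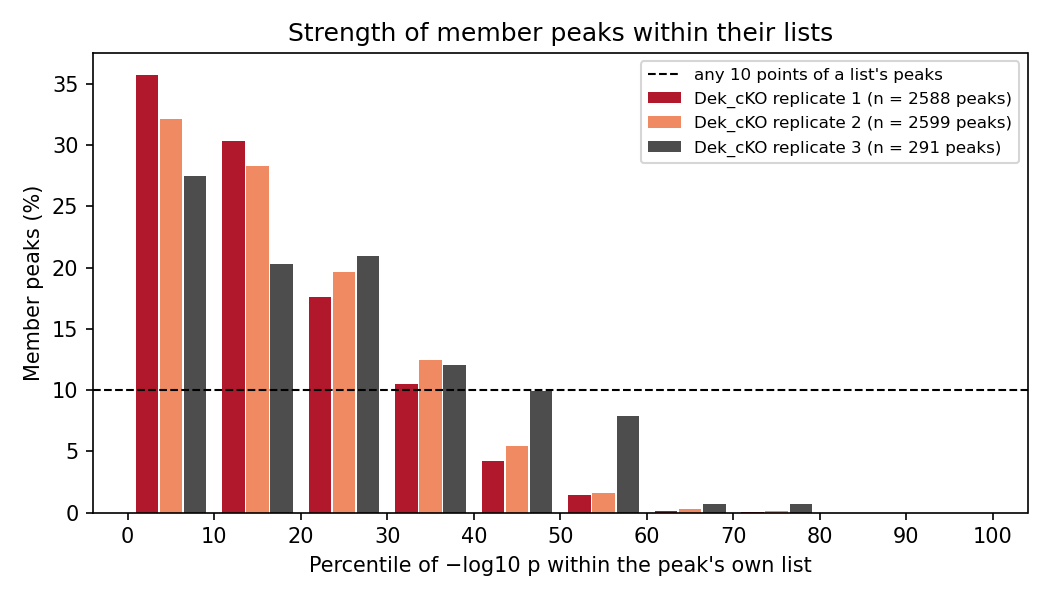
Share of member peaks (vertical axis, percent) in each 10-point step of the percentile of −log10 p within the list (horizontal axis), for 2588, 2599 and 291 member peaks of Dek_cKO replicates 1, 2 and 3; the dashed line is the share that all peaks of a list would have. In the lowest step stand 35.7%, 32.1% and 27.5% of the member peaks, and none stands above percentile 80.

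The 88 regions called in all 3 Dek_cKO lists had median percentiles of −log10 p of 13.7, 15.4 and 19.4 in replicates 1, 2 and 3, each below the median of all members. Summits of different lists lay close together, as peaks merged by overlap do in part by construction. In 2492 members with a peak in Dek_cKO replicates 1 and 2 the median distance between summits was 47 bp, and 78.8% lay within 150 bp, against 34 bp and 88.1% in regions called in all 6 lists. For replicates 1 and 3 the member median was 88.5 bp, and for replicates 2 and 3 it was 93 bp. In regions called in all 6 lists those pairs had 71 and 72 bp. Members were narrow, with a median width of 558 bp against 1002 bp for all regions and 629 bp for the opposite set. Regions merged from fewer lists are narrower by construction.

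The strongest members by rank, taken as the lower of their percentiles of −log10 p, were mostly inside genes and came from Dek_cKO replicates 1 and 2. The first lay in the body of Nrg2, a neuregulin that signals through ErbB receptors (chr18:36122309-36122709), with folds of 6.56 and 6.78 and −log10 q of 38.5 and 30.9 in Dek_cKO replicates 1 and 2. Next came a region 5384 bp from the RNA-binding protein gene Mex3a (chr3:88526253-88526562), with folds of 3.95 and 4.05 and −log10 q of 33.7 and 27.1. The start of the noncoding gene Gm41429 (chr16:18696521-18697004) had folds of 7.09 and 6.91. The region over the start of Dpf1, printed above in part, had folds of 3.51 and 5.30 and −log10 q of 23.3 and 44.4. None of these had a peak in replicate 3 of either group.

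Other members of this rank lay in the bodies of the potassium channel gene Kcnh6 (chr11:106032063-106032385, folds 3.31 and 4.37), the uracil-DNA glycosylase gene Smug1 (chr15:103165242-103165722, 3.81 and 4.40) and the growth factor receptor gene Igf1r (chr7:67961843-67962298, 4.66 and 5.97). The last of the 10 lay in Myo6, an unconventional myosin (chr9:80258316-80258846, 5.15 and 5.11), the RNA-editing enzyme gene Adar (chr3:89727007-89727330, 3.47 and 3.6) and Pitpnm2 (chr5:124119907-124120615, 4.06 and 4.16). In each, both values stand for Dek_cKO replicates 1 and 2 in that order. At Mex3a, Kcnh6 and Adar the fold ranked low while −log10 p ranked above the median. Such a gap of over 20 points, in every list that called the region, was seen in 62 members (2.30%), whose median width was 423 bp, and the reverse gap in 0 members.

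**Figure D2:**
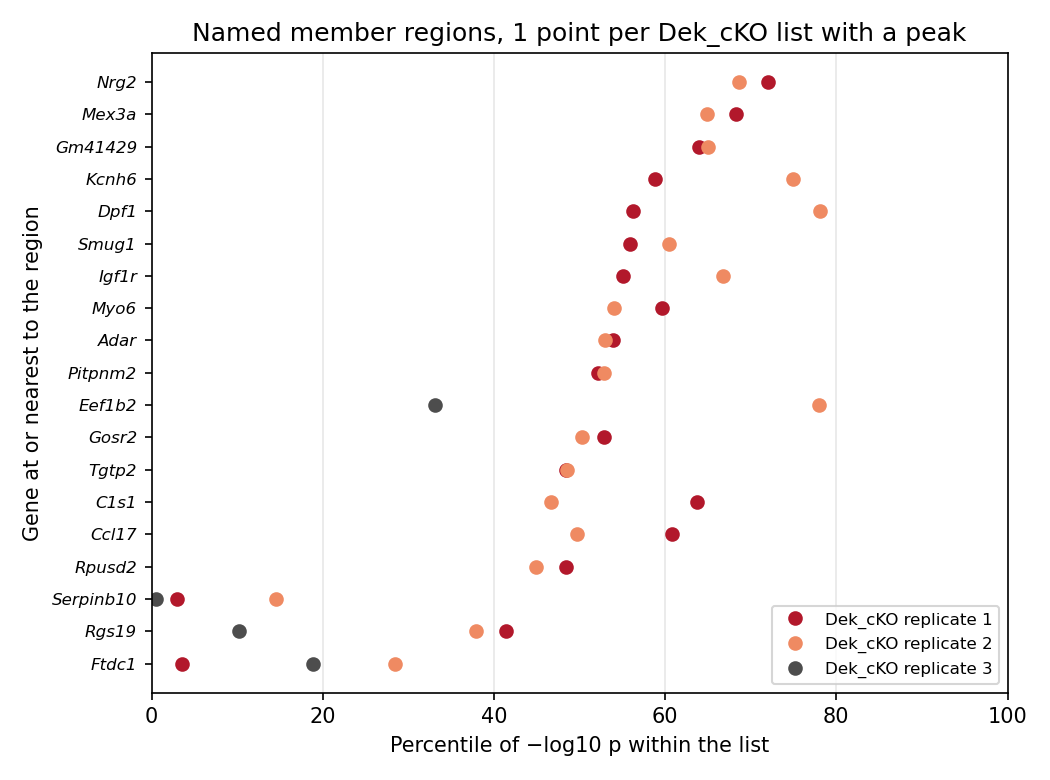
Percentile of −log10 p within its list (horizontal axis) for 19 named member regions, 1 row each by gene, with 1 point per Dek_cKO list that had a peak. Points of Dek_cKO replicates 1 and 2 run from percentile 78.1 at Dpf1 down to 2.97 at Serpinb10, and replicate 3 has a point in 4 rows only.

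By fold, the strongest members at ends of protein-coding genes lay beside Gosr2, a Golgi SNARE gene (chr11:103675383-103676360, folds 6.46 and 6.43 in Dek_cKO replicates 1 and 2), and over the start of Tgtp2, whose promoter is printed above (chr11:49064178-49064627, 6.02 and 6.25). The complement protease gene C1s1 followed (chr6:124542476-124542801, 7.78 and 6.08), then the chemokine gene Ccl17 (chr8:94812700-94813194, 6.59 and 6.03) and Rpusd2 (chr2:119040810-119041500, 6.02 and 5.90). The region at Ccl17 lay 494 bp from a Dek_fl peak, whereas that at Tgtp2 lay 11261 bp from the nearest one. Tgtp2 belongs to a family of near-identical copies, among which aligned reads may have been split.

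Inside genes, the highest after Nrg2 were in Anxa2, an annexin gene (chr9:69480207-69480933, 6.31 and 6.43), Kazn (chr4:142113038-142113919, 5.73 and 6.25), the deubiquitinase gene Usp29 (chr7:6936980-6937407, 6.75 and 5.90) and Snx29, a sorting nexin gene (chr16:11579389-11580179, 5.74 and 5.72). Outside genes, the highest were 99327 bp from Rpe65 (chr3:159724634-159725053, 5.73 and 6.79) and 32764 bp from Tfec, a relative of the Mitf transcription factor (chr6:16797539-16798163, 5.58 and 5.90). Then followed a region 54397 bp from Ptpn20 (chr14:33695151-33696027, 5.58 and 6.97), one 65409 bp from Ikzf2, the Helios gene (chr1:69752760-69753299, 5.58 and 7.15), and one 20642 bp from Pcbd1 (chr10:61068198-61068689, 5.27 and 5.59). The nearest Dek_fl peak was 114337 bp from the member near Rpe65 and 55564 bp from that near Ptpn20.

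The 3 promoter members called in all 3 lists were weaker. Rgs19 encodes a regulator of G protein signalling, and the folds at its member (chr2:181691664-181692083) were 2.69, 2.76 and 3.47 in Dek_cKO replicates 1, 2 and 3. At Ftdc1 (chr16:58617130-58617777) they were 2.78, 4.38 and 6.47. At Serpinb10 (chr1:107528133-107528966) they were 2.39, 3.04 and 4.05, and its peaks ranked at percentiles 2.97, 14.5 and 0.501 of −log10 p.

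Members lay away from gene ends. Of 2695, 339 (12.6%) lay within 1 kb of an annotated end of a gene of any kind, 1484 (55.1%) in gene bodies and 872 (32.4%) outside genes. Over all regions the shares were 26.0%, 47.1% and 26.9%, and over regions called in all 6 lists 56.6%, 28.9% and 14.5%. The opposite Dek_fl set had 13.4%, 53.3% and 33.3%, so both one-sided sets sat alike. Since wide regions reach a gene end more easily, the midpoint was also used, and gave 10.3% for members and 22.2% for all regions. Exons, introns and UTRs are not given by the gene table used. Members outside genes had a median distance of 10.8 kb to the nearest gene end, against 10.1 kb for all such regions.

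**Figure D3:**
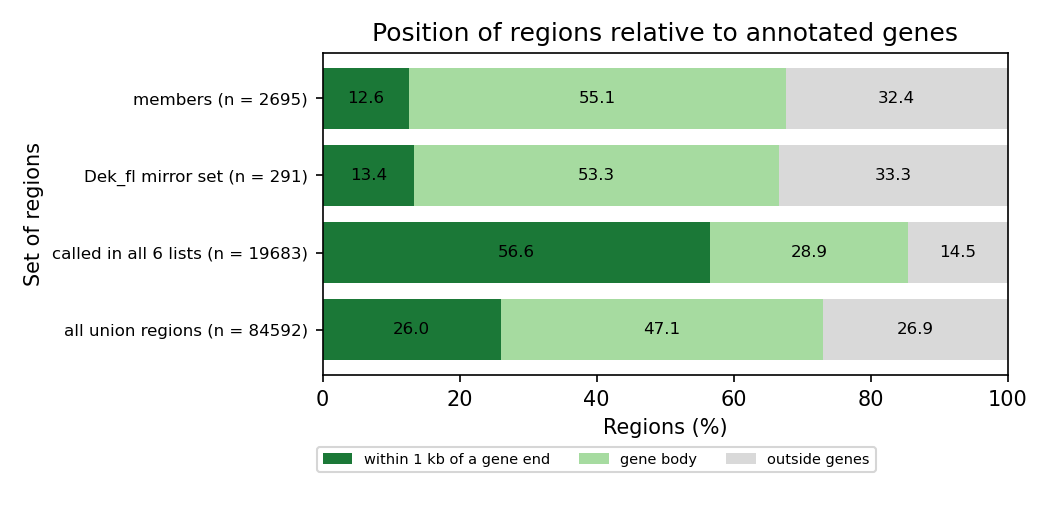
Percent of regions (horizontal axis) within 1 kb of a gene end, in gene bodies and outside genes, for the members, the opposite Dek_fl set, the regions called in all 6 lists and all union regions, with n in brackets. Members and the opposite set have 12.6% and 13.4% at gene ends, and the regions called in all 6 lists 56.6%.

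Most members had Dek_fl peaks in their surroundings. The median distance to the nearest Dek_fl peak was 5.50 kb, and 266 members (9.87%) lay within 1 kb of one, 92 of these within 500 bp. Named members this near were those at Ccl17 and Vwf and those at Ank1 (525 bp), Kcnh6 (751 bp), Ebf1 (903 bp) and Akt2 (919 bp). At the other extreme, 191 (7.09%) were over 50 kb from any Dek_fl peak. The opposite set stood closer to Dek_cKO peaks, at a median of 3.78 kb, with 14.4% within 1 kb and 2.75% beyond 50 kb. Those Dek_cKO peaks are more numerous. Of the 191 protein-coding genes with a member at an end, 66 had a peak at an end in all 3 Dek_fl lists, 57 in 1 or 2, and 68 (35.6%) in none. The same shares over all protein-coding genes were not counted, so whether 35.6% is high or low is not shown.

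No chromosome held a marked excess. Members made up 2.36% of the regions on chromosome X and 2.52% on chromosome 17, the lowest shares, and 3.82% on chromosome 18 and 3.89% on chromosome 19, the highest, around the 3.19% of all chromosomes. The largest number was on chromosome 2, with 217 of 6772 regions. Chromosome 13, which carries Dek, had 2.99%, and chromosome 4, which carries Tek, had 3.04%.

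**Figure D4:**
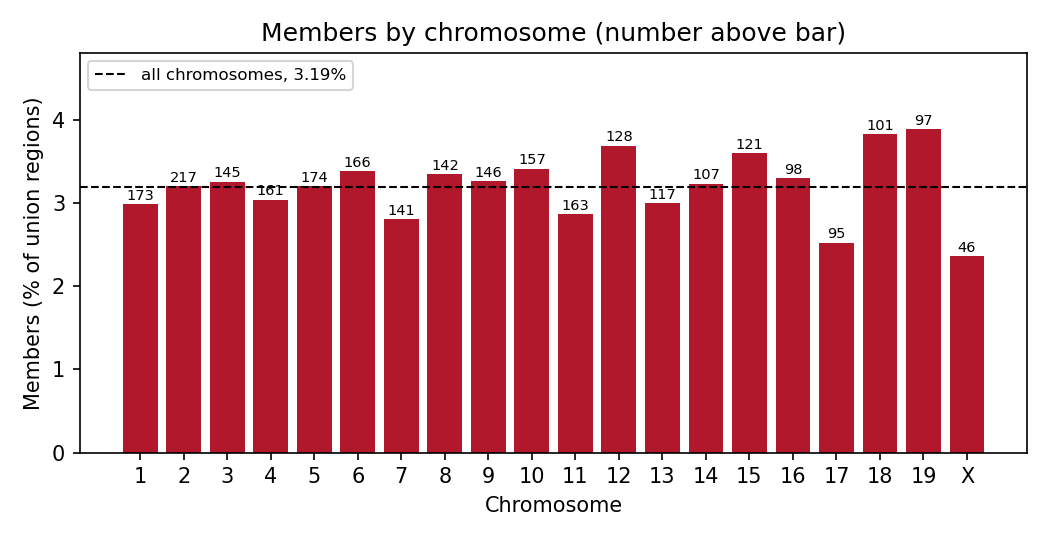
Members as percent of all union regions on each chromosome (vertical axis), with the number of members above each bar and a dashed line at 3.19% for all chromosomes. The bars run from 2.36% (X, 46 members) to 3.89% (19, 97 members).

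In the deposited lists most members had no other close by. With a gap of up to 50 kb, 2273 of 2695 stood alone, 172 runs held 2, 22 runs held 3 and 3 runs held 4. Thus 15.7% had another member within 50 kb and 29.5% within 100 kb. The 50 kb share was 63.5% without Dek_fl replicate 2, which left 14314 members, and 2.07% and 1.09% without Dek_cKO replicate 1 or 2. In 1 Mb bins that held any region, 956 had no member, 675 had 1, and the fullest 6 bins had 7 each. The fullest with fewest other regions was at 114 to 115 Mb of chromosome 6, where 7 of 73 regions (9.59%) were members.

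The 3 runs of 4 members were of different kinds. The tightest spanned 46.1 kb of the gamma-protocadherin cluster on chromosome 18 (37720296 to 37766396), whose variable exons encode neuronal adhesion proteins. All 4 members lay within 1 kb of gene ends, at Pcdhgb4 (folds 3.67 and 2.86 in Dek_cKO replicates 1 and 2), Pcdhgb5 (6.17 and 4.82), Pcdhga11 (2.94 and 3.04) and Pcdhga12 (3.73 and 3.75). None of the 8 union regions in that span was called in all 6 lists. These genes are close copies of each other and overlap in the annotation, so reads may have been split between them.

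A second run spanned 55.8 kb from Tns4 toward the chemokine receptor gene Ccr7 on chromosome 11 (99081267 to 99137105). Its members were weak, with folds of 2.50 and 2.50 in the body of Tns4 and 3.50 and 3.48 at 7094 bp from Ccr7, in Dek_cKO replicates 1 and 2. A further run lay at Ctsh, which encodes the lysosomal protease cathepsin H, and Morf4l1, a chromatin protein gene, on chromosome 9 (90033819 to 90097115, 63.3 kb). Here 2 of the 4 members had a replicate 3 peak, with folds of 8.68 at an end of Gm17944 and 6.25 at 9113 bp from that gene.

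Near genes, 2262 members had a protein-coding gene within 50 kb as their nearest, and these were 1987 genes, of which 1758 had 1 member. Syne1, a long gene for a nuclear envelope protein, had the most, 5 of its 23 regions. Over all protein-coding genes 3.02% of the regions nearest to them were members, and the gene lists below are read against that share. The lists were described by counts alone. Of the opposite Dek_fl set, 261 regions were nearest to a protein-coding gene in the same way. Stem cell regulators had 3 of these, AKT and mTOR genes 2 and each other list 0.

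Regulators of stem cells had 10 members among 399 regions (2.51%), at 8 of 30 genes (26.7%, against 9.19% of all protein-coding genes): Mecom, Prdm16, Runx1, Fli1, Erg, Myb, Mllt3 and Vwf. In the body of Runx1, a transcription factor gene needed to form blood stem cells, chr16:92639097-92639635 had folds of 3.52 and 4.71 in Dek_cKO replicates 1 and 2. In Vwf, which encodes a clotting factor and marks platelet-biased stem cells, chr6:125587079-125587540 had folds of 3.37 and 3.54 and lay 846 bp from a Dek_fl peak. By regions the list was near the share of all genes, and by genes above it. Most of the 12 lists were also above it by genes, such as endothelial genes (35.7%) and T and NK cell genes (27.8%). Those below were neutrophil and monocyte genes (9.09%), AKT and mTOR genes (8.70%) and megakaryocyte and platelet genes (0%).

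Genes of mature blood cells had few members each. Neutrophil and monocyte genes had 2 among 115 regions (1.74%): at the start of Ly6c2 (chr15:75111587-75112085, folds 3.96 and 3.75 in Dek_cKO replicates 1 and 2) and in Spi1, the PU.1 gene (chr2:91086405-91086869, 1.98 and 3.44 in Dek_cKO replicates 1 and 3). B cell genes had 3 among 52 (5.77%), led by Pax5, the B lineage factor gene (chr4:44577238-44578201, 4.55 and 5.18), with a further one in Ebf1 (chr11:44685608-44686431, 2.94 and 3.82). T and NK cell genes had 5 among 73 (6.85%), at Cd3e, Bcl11b, Klrb1c, Cd28 and Tbx21, led by one beside the NK receptor gene Klrb1c (chr6:128789759-128790066, 4.85 and 4.30). The one at Tbx21, the T-bet gene, had folds of 2.96 and 3.36 (chr11:97098429-97099062). Erythroid genes had 3 among 70 (4.29%), in the membrane skeleton gene Sptb (chr12:76592177-76592644, 2.96 and 2.99), 326 bp from an end of Ank1, the erythroid ankyrin gene (chr8:22973792-22974510, 3.04 and 2.96), and at Bcl11a. Megakaryocyte and platelet genes had 0 among 51.

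Endothelial genes had the highest share of the 12 lists, 6 members among 79 regions (7.59%), at Cdh5, Pecam1, Flt1, Flt4 and Nos3. In Cdh5, the VE-cadherin gene, chr8:104131146-104131861 had folds of 3.67 and 4.47 in Dek_cKO replicates 1 and 2. In Flt4, a receptor for lymphatic growth factors, chr11:49613523-49613895 had 3.47 and 3.90. Counts this small move by over a percentage point with 1 region, and the part of endothelial cells in them was not tested.

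Among signalling and chromatin lists, the corepressor and histone deacetylase genes had a share above that of all genes and the other 4 a share below it. AKT and mTOR genes had 2 members among 199 regions (1.01%): in Tsc1, a brake on mTOR (chr2:28654157-28654708, 4.26 and 4.47 in Dek_cKO replicates 1 and 2), and in Akt2 (chr7:27607752-27608396, 2.43 and 6.66 in Dek_cKO replicates 1 and 3). Corepressor and histone deacetylase genes had 5 among 130 (3.85%), such as Hdac9 (chr12:34495832-34496527, 3.82 and 5.18) and Hdac4 (chr1:91960017-91960600, 3.22 and 5.25). Cytokine receptor genes had 5 among 177 (2.82%), with Il6ra (chr3:89883779-89884262, 3.26 and 3.52) and Ifnar2 (chr16:91336801-91337692, 4.41 and 3.04). Cell cycle genes had 2 among 112 (1.79%), at 2429 bp from Ccnd2 (chr6:127122425-127122733, 4.11 and 4.11) and in Cdk6 (chr5:3355494-3356087, 2.66 and 4.75 in Dek_cKO replicates 2 and 3). Src family kinase genes had 1 among 78 (1.28%), in Lyn (chr4:3766169-3766891). It was called in all 3 Dek_cKO lists, with folds of 4.55, 5.54 and 8.61 in replicates 1, 2 and 3.

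Few members outlasted a cut to equal list length. When each list was cut to its 23809 strongest peaks by −log10 p, 2492 of 2695 members (92.5%) lost every Dek_cKO peak, 201 kept 1, 2 kept 2 and none kept 3. The cut fell at −log10 p of 34.2, 32.1 and 9.48 in Dek_cKO replicates 1, 2 and 3. It left 2 of 2588, 4 of 2599 and 199 of 291 (68.4%) member peaks. Of all peaks of these lists it left 33.7%, 32.5% and 87.6%. Of the regions called in all 6 lists, 79.7% kept all 3 Dek_cKO peaks. The opposite Dek_fl set fared like the members: 271 of 291 (93.1%) lost every Dek_fl peak, 19 kept 1 and 1 kept 3.

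The 2 members that kept a pair of peaks were the region in Nrg2 and one 449 bp from an end of Eef1b2, a translation elongation factor gene (chr1:63180935-63181368). The latter had folds of 4.60 and 4.32 and −log10 q of 44.1 and 11.5 in Dek_cKO replicates 2 and 3. The region in Lyn, and that at Ftdc1, kept 1 peak each.

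When the rule was applied afresh to the equal-length lists, 461 of 34800 regions (1.32%) were toward Dek_cKO and 529 (1.52%) toward Dek_fl, so the direction turned. The 461 were other regions: 459 of them overlapped a Dek_fl peak of the deposited lists, and 2 overlapped a member. A milder cut was made within the 2 sets of lists that differ in threshold, called batches here although no label names a batch. Its lengths were 52434 peaks in replicates 1 and 2 and 23809 in replicate 3. It left 372 members with 2 Dek_cKO peaks and 6 with 3, the region in Lyn among these 6. The fresh counts were 1176 (1.82%) toward Dek_cKO and 944 (1.46%) toward Dek_fl of 64500 regions. Of the 1176, 378 (32.1%) overlapped a member. At a −log10 q of at least 10 in each list the fresh counts were 1738 and 32 of 57850 regions. The median member peak, at −log10 q of 5.98 and 5.77 in Dek_cKO replicates 1 and 2, lies below that threshold. How many of the 1738 overlapped a member was not counted.

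**Figure D5:**
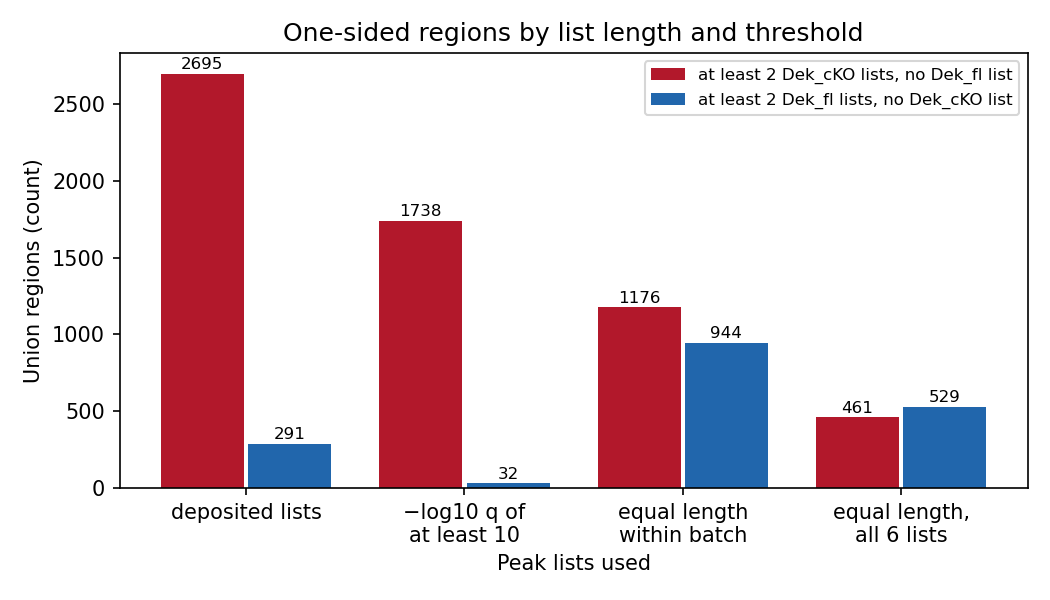
Number of union regions (vertical axis) toward Dek_cKO and toward Dek_fl in the deposited lists, at −log10 q of at least 10, in lists of equal length within a batch and in 6 lists of equal length. The pairs are 2695 and 291, 1738 and 32, 1176 and 944, and 461 and 529. Each pair comes from the rule applied afresh to those lists, so the regions counted can be others than the members.

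The replicate 3 lists offered a reading that a choice from replicates 1 and 2 did not use. Of 2555 regions called in Dek_cKO replicates 1 and 2 and in neither Dek_fl replicate 1 nor 2, 137 (5.36%) had a peak in Dek_cKO replicate 3 and 63 (2.47%) in Dek_fl replicate 3. Of these, 88 were called in Dek_cKO replicate 3 alone, 14 in Dek_fl replicate 3 alone and 49 in both. Among all 83703 regions of replicates 1 and 2 the shares were 30.7% and 27.4%. Of those regions, 5239 were called in Dek_cKO replicate 3 alone and 2450 in Dek_fl replicate 3 alone. The opposite choice of 282 regions, toward Dek_fl, also had more calls in Dek_cKO replicate 3 (7) than in Dek_fl replicate 3 (4). This reading sets 1 library against 1 library and has no replicate error.

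The held-out difference changed between the deposited and the shortened lists, which also chose other regions. It was 2.90 percentage points in the deposited lists, beside 3.33 points over all regions. The shares behind these differences are far apart, 5.36% and 2.47% against 30.7% and 27.4%. The points therefore do not compare chosen and all regions on like terms. With equal lengths within the batches it was 1.68 points (6.98% and 5.31% of 1131 regions), beside -0.54 points over all regions (35.2% and 35.7%). Calls in Dek_cKO replicate 3 alone and in Dek_fl replicate 3 alone numbered 41 and 22 there, against 3071 and 3409 over all regions. With 6 lists of equal length the difference was -2.39 points (30.9% and 33.3% of 460 regions), beside -1.92 points over all regions (65.7% and 67.6%). Calls in 1 replicate 3 list alone then numbered 40 (Dek_cKO) and 51 (Dek_fl), against 1690 and 2248 over all regions. With replicate 1 held out in place of replicate 3, 94 of 210 regions (44.8%) were called in Dek_cKO replicate 1. In Dek_fl replicate 1, whose list is the shorter by 18305 peaks, 15 (7.14%) were called. Over all 79978 regions of replicates 2 and 3 these shares were 82.5% and 62.3%, and over the 50 regions chosen toward Dek_fl they were 64% and 14%. With replicate 2 held out, where the lists are near in length, the shares were 79.2% and 80.4% of 937 regions, and 87.1% and 87.5% over all regions.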

How the data were processed

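ATAC-seq peak lists of 6 libraries were used, 3 labelled Dek_fl and 3 labelled Dek_cKO, grouped by title. The tools named in the submitters' processing notes are MACS2, Picard and Bowtie2, and the build is mm10. Their versions and settings, and any shift of reads for Tn5, are not given in the labels. The authors called 1 list per library, not on pooled samples. Each deposited row holds an interval, a score, a fold enrichment (a ratio to the local background), and −log10 of the p-value and of the q-value. In the deposited lists the score was 10 times the −log10 q in replicates 1 and 2 and 10 times the −log10 p in replicate 3, within 1 unit, in 100% of peaks. Replicate number therefore also marks 2 ways of calling, each with both groups. These are the batches of the text, a name that the labels do not give.

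Peaks sharing at least 1 bp were merged in Python 3.11.15 with pandas 2.3.3, with coordinates counted from 1. A region's value in a library is that of its peak of highest −log10 p, and percentiles are within a list. The gene table (RefSeq, GRCm38.p6, with 21631 protein-coding genes) gives starts and ends without exons. Of 214 list entries 213 matched by symbol. Merging, the rule and the cut were tested on simulated lists.

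Members and gene lists were chosen with earlier results of these data known, so nothing about the members was tested and no p-value is given. Named regions were the 10 of highest lowest-percentile of −log10 p, those keeping at least 2 peaks at equal length, the 5 of highest lowest-percentile of fold per position, the 3 fullest runs, up to 2 genes per list and 3 regions on each side of the rule. The promoter members called in all 3 lists and the printed promoters were added after their values were seen. Alternatives were a stricter q, equal list lengths, other merging, other distances and each library left out.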

Additional observations from a re-analysis of the deposited data

How the results depend on the processing

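The lists give no read numbers, so depth limits what an uncalled region can show, and a count of one-sided regions moves with list length. No paired analysis was possible because the members come from calls and not from a test. The number of members was 2695, and 2692 or 2672 with other merging. It moved to 1738 at −log10 q of at least 10, 1176 with equal lengths within the batches, 461 with 6 equal lengths and 88 when all 3 Dek_cKO lists were required, and ranged from 184 (without Dek_cKO replicate 2) to 14314 (without Dek_fl replicate 2) when 1 library was left out. Without both replicate 3 libraries, a setting added after seeing the data, it was 2555. The stricter q and the shortened lists applied the rule afresh, so their regions can be others than the 2695.

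The percent at gene ends was 12.6 (95% Wilson interval 11.4 to 13.9, counting error only). That interval counts regions as if independent and holds no spread between libraries. The percent moved with the settings. It was 15.5 at the stricter q, 14.8 and 17.8 with equal lengths within the batches and over 6 lists, 8.61 and 23.0 at 500 and 2500 bp, 7.27 for protein-coding genes, 10.3 by midpoint (added after seeing the data), and 10.9 to 14.3 with 1 library left out. The percent with another member within 50 kb was 15.7, and was 12.5, 9.52 and 4.34 under the first 3 of these settings, 3.90 at 10 kb, 29.5 at 100 kb, and 1.09 to 63.5 with 1 library left out. The held-out difference of 2.90 points was 1.68 with equal lengths within the batches, -2.39 with 6 equal lengths, 37.6 and -1.17 with replicates 1 and 2 held out, and 2.23 to 3.78 with 1 library left out. The cause of these moves was not tested. Of 52 named members, 28 still met the rule at the stricter q, 30 and 2 with equal lengths within the batches and over 6 lists, 51 or 52 with other merging, 6 without Dek_cKO replicate 1 or 2 and 47 without Dek_cKO replicate 3. Leaving out a Dek_fl library cannot remove a member.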
